A study of Mus musculus with 32 samples.

Results

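ELOF1 is a small elongation factor that travels with RNA polymerase II, and the comparison described here is of the transcriptome of a class-switching B cell line without and with that factor. CH12F3 is a mouse B lymphoma line that carries IgM and can switch to IgA in culture. All libraries came from CH12F3 cells whose Elof1 gene had been knocked out (Elof1-KO), stimulated for 1.5 days through CD40 (by an antibody), together with IL-4 and TGF-beta. In the ELOF1-deficient group, called vector, the knockout carried an empty vector, with 4 libraries. In the ELOF1-proficient group, called ELOF1, the same knockout carried an ELOF1 construct, also with 4 libraries. These 8 libraries were chosen by their genotype and time labels out of 32 in the series, and mouse genes alone were tested. Both groups therefore lack the endogenous gene, and the comparison is of a knockout with its own complementation. The labels used here give neither the number of knockout clones, nor the promoter of the construct, nor whether same-group libraries came from separate cultures, so p-values measure only the spread between these libraries. RNA was depleted of ribosomal RNA rather than selected for poly(A), and polyadenylated RNA of Drosophila S2 cells had been added in a fixed amount per cell.

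ELOF1 binds elongating RNA polymerase II, and in yeast and human cells it takes part in transcription-coupled repair, in which a polymerase stalled at a DNA lesion calls in repair factors. In B cells class switching starts from DNA lesions made in transcribed switch regions. IL-4 acts through its receptor and STAT6 to turn on a set of B cell genes that includes the germline transcripts of IgG1 and IgE and the low-affinity IgE receptor, CD40 acts through TRAF proteins and NF-kB, and TGF-beta directs the switch to IgA.

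The 8 libraries held between 7112130 mouse counts (ELOF1 replicate 1) and 15163087 (ELOF1 replicate 4). Replicates 1 and 2 of both groups came from one run of library names (series 1) and replicates 3 and 4 from another (series 2). Mitochondrial ribosomal RNA was 0.984% to 2.64% of mouse counts in the 4 libraries of series 1, and 0.270% to 0.566% in those of series 2. All 8 B cell marker genes were tested, and their summed level was 1402 to 1623 CPM (counts scaled to library size) in vector and 1158 to 1313 CPM in the ELOF1 libraries. Summed T cell markers were at 0.677 to 2.14 CPM in vector and 2.21 to 7.76 CPM in the ELOF1 libraries, with Cd2 at 0 counts throughout, and summed NK cell markers were at 2.57 to 15.3 CPM in vector and 8.01 to 19.1 CPM in the ELOF1 libraries, with Klrd1 and Ncr1 at 0. Myeloid markers summed to 64.1 to 128 CPM in vector and 72.2 to 123 CPM in the ELOF1 libraries, with S100a8, S100a9 and Lyz2 at 0. Counts sufficed to test 1 of 8 T cell, 1 of 6 NK cell and 3 of 8 myeloid markers. Of these, 1 in each list passed (Cd4 and Prf1 lower, Adgre1 higher in vector). Cd4 had 1 to 30 counts per library. Prf1 made up most of the NK cell sum, at 2.44 to 14.7 CPM in vector and 7.80 to 18.6 CPM in the ELOF1 libraries. The part of such RNA in the results below was not tested.

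Elof1 itself (chromosome 9, 22112989 to 22117148, minus strand, build mm10) stood at 5.14, 5.67, 1.06 and 3.52 CPM in vector replicates 1 to 4, against 707, 645, 395 and 175 CPM in ELOF1 replicates 1 to 4. Every vector library was far below every ELOF1 library, and the 2 ELOF1 libraries of series 1 were above both of series 2. The log2 fold change of vector over ELOF1 was -6.84 (SE 0.24, edgeR adjusted p = 3.41e-09), or 115-fold lower. As a scale for the construct, wild-type spleen B cells of the same series had 30.3 ± 17.1 CPM (SD, n = 5) in a fit over both cell systems, in which the ELOF1 libraries had 454 ± 233 CPM (SD, n = 4). ELOF1-proficient libraries thus carried a higher Elof1 CPM than wild-type primary B cells did, and an unmodified CH12F3 line is not analysed here.

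Many genes differed by modest amounts between cells without and with ELOF1, in both directions about equally. Of 12706 tested genes, 993 (7.82%) differed between vector and ELOF1 at an edgeR adjusted p below 0.05, 503 higher in vector (3.96%) and 490 lower (3.86%). The median absolute log2 fold change of these genes was 0.53. Changes of 2-fold or more were mostly losses, with 136 genes lower and 39 higher in vector. The direction was the same in all 4 replicate pairs for 963 of the 993, where 29.1% of all tested genes had 1 direction in all 4 pairs. The CPM ranges of the groups did not overlap for 292 of the 993, where 3.75% of all tested genes did not overlap. The choice of these genes by a paired test on the same 4 pairs largely fixes the first of these shares and raises the second. In these bulk samples, fewer cells expressing a gene and less of its RNA per cell cannot be told apart.

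These counts depended on the scaling, the pairing and the libraries of series 1. With libraries scaled by the added fly RNA, the median log2 fold change of all genes was -0.09 in place of 0.01. Then 186 genes passed, 30 higher and 156 lower in vector. Of these 186, 154 had changed 2-fold or more, where 175 of the 993 above had. The even split above is thus relative to the bulk of genes. Since mainly large changes passed with fly scaling, its counts cannot decide the split per unit of fly RNA. The share of fly RNA overlapped between the groups. Expressed as a log2 ratio, fly over mouse counts were -4.83, -5.54, -5.02 and -5.26 in vector replicates 1 to 4, and -5.23, -5.08, -5.16 and -5.46 in ELOF1 replicates 1 to 4, a mean difference of 0.07 (exact sign-flip test, p = 0.75, the smallest possible being 0.13). Without replicate 1, 428 genes passed, and without replicate 2, 480. Libraries of the same number moved together in both groups, and with a term for library series in place of the pairing 64 genes passed.

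Genes that IL-4 induces were higher without ELOF1. Of 20 tested genes of the IL-4 receptor and STAT6 list, 15 were higher in vector and none was lower, with a median log2 fold change of 0.49, where the median of all tested genes was 0.01. With fly scaling 5 remained called and the median was 0.39. The strongest by p was Fcer2a (chromosome 8, 3681737 to 3694174, minus strand), the low-affinity IgE receptor CD23 and a classical IL-4 target. It was at 152, 129, 99.7 and 193 CPM in vector replicates 1 to 4, against 42.6, 26.7, 37.5 and 68.9 CPM in ELOF1 replicates 1 to 4. The lowest vector library lay above the highest ELOF1 library, and the log2 fold change was 1.73 (SE 0.12, edgeR adjusted p = 9.68e-06).

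The 250 bases before a RefSeq start of Fcer2a (GRCm38.p6, chr8:3690862-3691111, minus strand, 5′ to 3′) are shown because this was the 1 promoter of the called IL-4 genes with a sequence in the table, 12 of 15, that held the STAT6-type palindrome TTCNNNNGAA. Capitals mark that palindrome, whose first base is 168 bases before the start. The window lies within the span of Fcer2a given above, so this start is internal to the counted gene.

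Fcer2a: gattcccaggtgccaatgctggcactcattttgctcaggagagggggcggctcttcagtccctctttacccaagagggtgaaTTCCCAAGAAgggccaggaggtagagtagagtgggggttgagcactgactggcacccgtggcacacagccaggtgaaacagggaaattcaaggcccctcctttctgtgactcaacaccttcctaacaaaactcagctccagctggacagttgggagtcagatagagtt

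The same letters occurred in 5.85% of 32851 mouse promoter windows of this length, so the match is a description of the sequence and not evidence of a binding site.

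The 5 members that did not pass, named after their values were seen, were the kinase genes Jak1, Jak3 and Tyk2, the shared receptor chain Il2rg and the feedback inhibitor Socs1, with log2 fold changes of 0.04, 0.14, -0.06, 0.18 and 0.14. The STAT genes of the list passed. Stat5a, a transcription factor that cytokine receptors activate, was at 218.5, 230, 146 and 203 CPM in vector replicates 1 to 4 and at 106, 105, 78.2 and 116 CPM in ELOF1 replicates 1 to 4 (log2 fold change 0.97, SE 0.08, edgeR adjusted p = 3.66e-05). Its groups did not overlap. Cish, an inhibitor that STAT5 induces as feedback, was at 103, 71.0, 19.9 and 48.6 CPM in vector, against 30.6, 15.1, 7.35 and 22.2 CPM in the ELOF1 libraries (log2 fold change 1.63, SE 0.15, edgeR adjusted p = 8.54e-05). It was higher in vector in every pair, although vector replicate 3 fell below ELOF1 replicates 1 and 4. Among the other called members, Stat5b, Stat3, Il4ra (the receptor's alpha chain), Stat6, Il4i1, Socs2 and Socs3 are named here after their values were seen. Il4ra and Stat6 both had a log2 fold change of 0.48 (edgeR adjusted p = 0.0022 and 0.00265). Stat5a and Stat3 lie end to end on opposite strands and share a short overlap at their ends, and the use of strand in counting is not given in the sources used here.

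Constant region genes of IgE and of all 4 IgG isotypes tested were higher in vector, from a low level. Ighg1 (chromosome 12, 113325240 to 113330523, minus strand), the constant region gene of IgG1, was at 15.2, 13.8, 15.7 and 18.4 CPM in vector replicates 1 to 4, against 5.99, 3.57, 7.19 and 5.21 CPM in ELOF1 replicates 1 to 4. The groups stood clear of each other (log2 fold change 1.54, SE 0.17, edgeR adjusted p = 0.000273). Ighe, the constant region gene of IgE, was at 4.50, 8.09, 13.9 and 13.0 CPM in vector and at 2.04, 2.49, 3.79 and 4.61 CPM in the ELOF1 libraries (log2 fold change 1.6, SE 0.19, edgeR adjusted p = 0.000458). It was higher in vector in all 4 pairs, with an overlap between vector replicate 1 and ELOF1 replicate 4. Ighg2b was higher too (log2 fold change 1.46, SE 0.27, edgeR adjusted p = 0.00559), at 29.4, 17.8, 5.42 and 7.46 CPM in vector and 5.85, 4.98, 4.82 and 2.94 CPM in the ELOF1 libraries, and most of that gap lay in series 1. Ighg3 (1.25, edgeR adjusted p = 0.00679) and Ighg2c (1.39, edgeR adjusted p = 0.0113), which are not on the IL-4 list and are named after their values were seen, were higher by these log2 fold changes. These genes are near-identical in parts, and the counts do not separate germline transcripts from transcripts of switched cells.

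The isotypes of the line itself went the other way or did not pass. Igha, the constant region gene of the isotype to which the line switches, was at 1191, 1307, 1553 and 1549 CPM in vector replicates 1 to 4, against 1519, 1469, 1730 and 1958 CPM in ELOF1 replicates 1 to 4. It was lower in vector in every pair, by a log2 fold change of -0.25 (SE 0.07, edgeR adjusted p = 0.039), and the groups overlapped. It did not pass without replicate 1 or without replicate 4. Ighm had a log2 fold change of -0.33 (SE 0.14, edgeR adjusted p = 0.196), with 1 of 4 pairs higher in vector. The log2 ratio of Igha to Ighm counts, a measure of isotype RNA and not of switched cells, was -0.48, -0.47, -0.67 and -0.55 in vector replicates 1 to 4 and -1.04, -0.75, -0.83 and 0.15 in ELOF1 replicates 1 to 4. ELOF1 replicate 4 stood far above the other 3 of its group, and the mean difference of 0.0754 did not pass (exact sign-flip test, p = 0.75, adjusted over 3 values 0.75). Without replicate 1 it was -0.0861.

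Light chains and the joining chain fell. Igkc was at 668, 631, 728 and 651 CPM in vector replicates 1 to 4, against 1050, 900, 1204 and 815 CPM in ELOF1 replicates 1 to 4 (log2 fold change -0.55, SE 0.08, edgeR adjusted p = 0.00112), with no overlap. Iglc2 fell as well (log2 fold change -0.98, SE 0.12, edgeR adjusted p = 0.000443), and so did Jchain, which joins the units of secreted IgM and IgA (log2 fold change -1.15, SE 0.20, edgeR adjusted p = 0.00374). Jchain was at 47.2, 113, 122 and 276 CPM in vector and at 213.6, 252, 272 and 340 CPM in the ELOF1 libraries, so its gap was widest in replicate 1 and narrowest in replicate 4. In all, the immunoglobulin constant list had 5 members higher and 4 lower in vector out of 11 tested.

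Of the plasma cell differentiation list, 2 members rose, 3 fell and 6 did not pass, with a median log2 fold change of -0.23. Prdm1 (chromosome 10, 44437177 to 44528501, minus strand), which encodes BLIMP-1, the repressor that drives plasma cell differentiation, was at 2.44, 1.78, 5.51 and 3.32 CPM in vector replicates 1 to 4. In ELOF1 replicates 1 to 4 it was at 49.7, 33.0, 16.1 and 12.4 CPM. The groups did not overlap, and the fall was 7.09-fold (log2 fold change -2.83, SE 0.36, edgeR adjusted p = 0.000742). Creb3l2, a membrane-bound transcription factor of the secretory pathway, fell by a log2 fold change of -0.45 (SE 0.10, edgeR adjusted p = 0.0191). Irf4, which acts in both activated B cells and plasma cells, rose (0.49, SE 0.07, edgeR adjusted p = 0.00154), and so did the surface receptor Slamf7 (0.75, SE 0.10, edgeR adjusted p = 0.00111). Of 16 B cell identity factors none passed in either direction, and Xbp1 and Pax5, named after their values were seen, had log2 fold changes of -0.07 and 0.08.

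**Figure D1:**
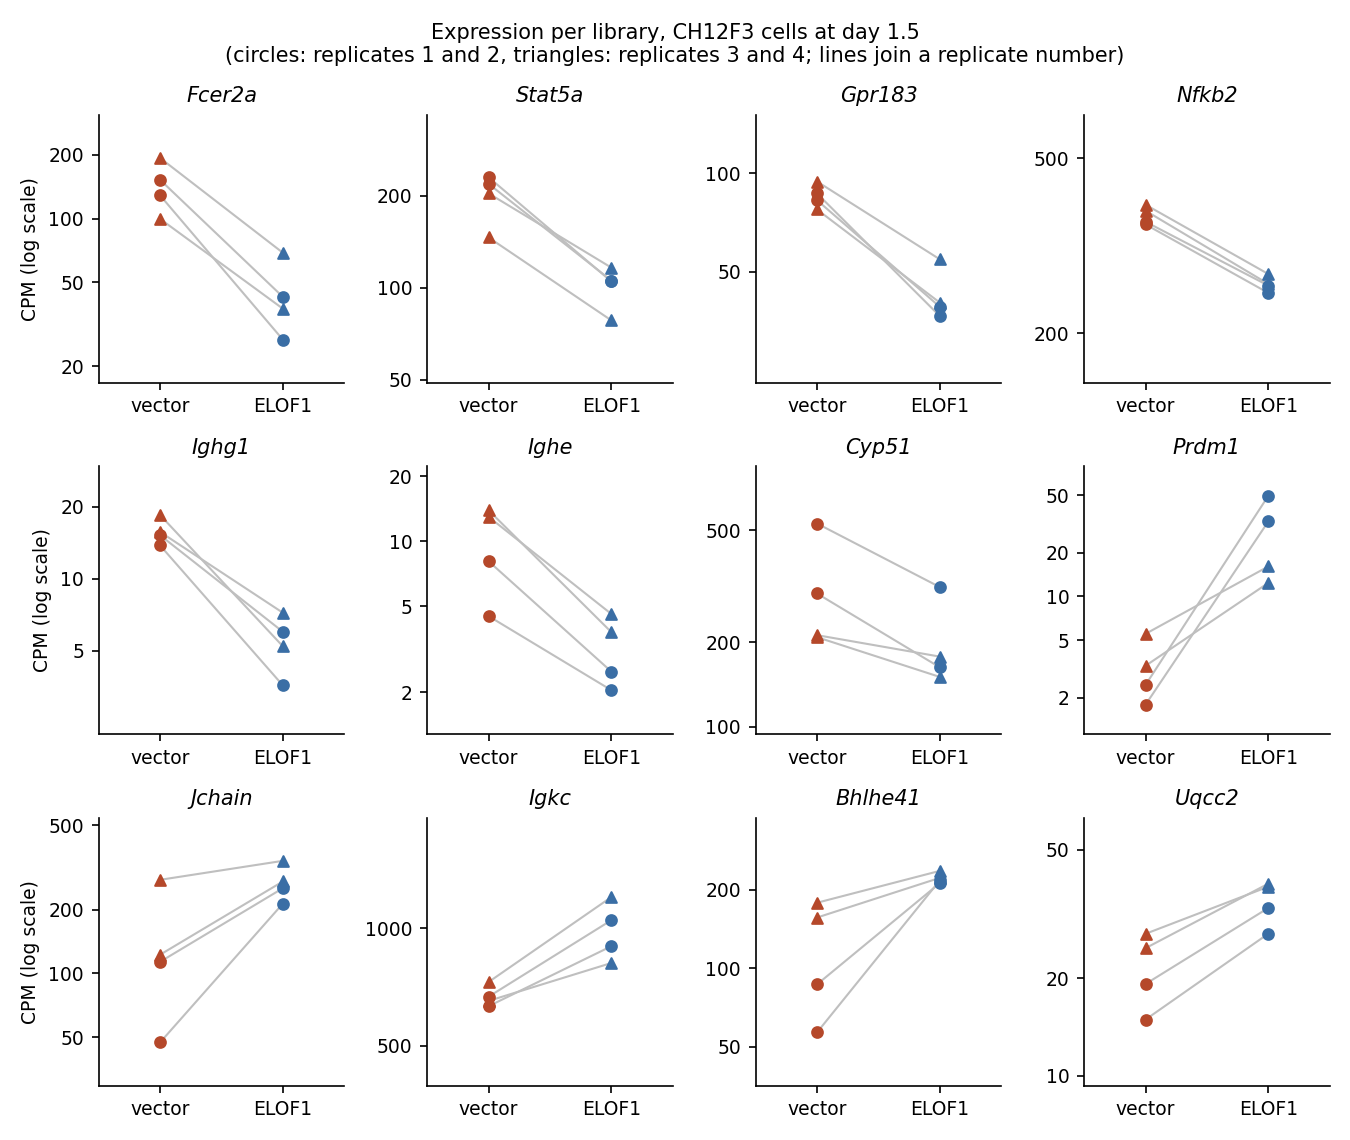
Level of 12 genes in each library at day 1.5, in CPM on a log axis, with vector left and ELOF1 right in each panel. Circles are replicates 1 and 2, triangles are replicates 3 and 4, and lines join the 2 libraries of a replicate number. Fcer2a, Stat5a, Gpr183, Nfkb2 and Ighg1 were higher in all vector libraries than in any ELOF1 library, Prdm1, Igkc, Bhlhe41 and Uqcc2 were lower in all of them, and Ighe, Cyp51 and Jchain overlapped between groups while keeping 1 direction in each pair.

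Activation and costimulation genes also rose without ELOF1. Of 26 tested members of that list, 16 were higher and 2 (Cd24a and Cd69) lower in vector, with a median log2 fold change of 0.43, and 2 remained higher with fly scaling, where the median was 0.34. Cd40, the receptor that the culture stimulates, was at 147, 120, 123 and 92.6 CPM in vector replicates 1 to 4, against 89.3, 74.8, 85.4 and 76.4 CPM in ELOF1 replicates 1 to 4. No library crossed between the groups (log2 fold change 0.55, SE 0.08, edgeR adjusted p = 0.00208). Traf1, an adaptor of TNF receptors and itself an NF-kB target, was at 262, 242, 165 and 298 CPM in vector and 75.7, 80.8, 109 and 193 CPM in the ELOF1 libraries (log2 fold change 1.13, SE 0.17, edgeR adjusted p = 0.00167). It was higher in vector in every pair, with a smaller gap in series 2. Ebi3, a subunit of the cytokines IL-27 and IL-35, rose by 0.82 (SE 0.10, edgeR adjusted p = 0.000443), Tnfrsf8, which encodes CD30, by 0.66 (SE 0.10, edgeR adjusted p = 0.00187), and the transcription factor Bhlhe40 by 0.65 (SE 0.09, edgeR adjusted p = 0.00108), all on the log2 scale. Cd86 and Cd80, the ligands of CD28 and named after their values were seen, both had a log2 fold change of 0.57 (edgeR adjusted p = 0.00745 and 0.0222).

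Of 20 tested migration and adhesion receptors, 4 were higher in vector and none was lower, with a median log2 fold change of 0.08. With fly scaling 1 remained called and the median was -0.03, and 2 were higher without replicate 2. Gpr183, the oxysterol receptor EBI2, was at 82.8, 86.9, 77.6 and 94.5 CPM in vector replicates 1 to 4, against 39.1, 36.6, 40.2 and 54.6 CPM in ELOF1 replicates 1 to 4. That is a 2.01-fold rise with no overlap (log2 fold change 1.01, SE 0.09, edgeR adjusted p = 8.23e-05). Gpr183 lies within Ubac2, a gene on the other strand. The chemokine receptor Ccr7 rose by 0.38 (SE 0.09, edgeR adjusted p = 0.026) and the lysophospholipid receptor Gpr55 by 1.01 (SE 0.17, edgeR adjusted p = 0.00374) on the log2 scale. Ccl22, the chemokine that attracts CCR4-bearing T cells and an IL-4 target, was at 3099, 4067, 5087 and 5301 CPM in vector and 1934, 2026, 3425 and 3971 CPM in the ELOF1 libraries (log2 fold change 0.67, SE 0.09, edgeR adjusted p = 0.000894).

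In the NF-kB list, 9 of 21 tested members rose and none fell, with a median log2 fold change of 0.20. With fly scaling 1 remained called and the median was 0.09, and 4 were called without replicate 1 and 6 without replicate 4. Nfkb2 (chromosome 19, 46304737 to 46312090, plus strand), which encodes the p100 and p52 subunits of the non-canonical pathway that CD40 uses, was the steadiest. It was at 354, 359, 380 and 392 CPM in vector replicates 1 to 4 and at 247, 257, 259 and 273 CPM in ELOF1 replicates 1 to 4 (log2 fold change 0.52, SE 0.06, edgeR adjusted p = 0.000612). The lowest vector library lay well above the highest ELOF1 library, with little spread within either group. Map3k14, the NIK kinase upstream of it, rose by 0.42 (SE 0.09, edgeR adjusted p = 0.0102), Nfkb1 by 0.32 (SE 0.07, edgeR adjusted p = 0.0136) and Cflar, an inhibitor of death receptor signalling, by 0.57 (SE 0.10, edgeR adjusted p = 0.00434). The feedback inhibitors Nfkbia (0.28, SE 0.07, edgeR adjusted p = 0.028) and Tnfaip3 (0.29, SE 0.07, edgeR adjusted p = 0.0169) and the subunit Rel (0.37, SE 0.10, edgeR adjusted p = 0.0435) are named after their values were seen, and each of them lost its call without replicate 1.

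Promoter sequence was in the RefSeq table for 8 of these 9 genes, and 5 of the 8 (Bcl2l1, Nfkb2, Nfkbia, Rel and Tnfaip3) held the kappa B letters GGGNNTTTCC on either strand in the 250 bases before a start. Of these windows 4 (GRCm38.p6, 5′ to 3′ in the direction of the gene) are printed so that the motif can be read where it lies, with the motif in capitals. They are chr19:46304487-46304736 (plus strand, first base of the motif 11 bases before the start) for Nfkb2, chr12:55492648-55492897 (minus strand, 29 bases) for Nfkbia, chr10:19015411-19015660 (minus strand, 12 bases) for Tnfaip3 and chr11:23770970-23771219 (minus strand, 91 bases) for Rel. The Tnfaip3 window lies almost wholly within the counted span of that gene (19000910 to 19015657).

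Nfkb2: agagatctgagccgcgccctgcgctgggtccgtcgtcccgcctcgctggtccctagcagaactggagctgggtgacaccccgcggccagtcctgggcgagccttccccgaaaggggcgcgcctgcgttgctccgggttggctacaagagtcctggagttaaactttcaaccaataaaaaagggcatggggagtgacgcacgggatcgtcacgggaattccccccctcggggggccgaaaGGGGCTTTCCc

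Nfkbia: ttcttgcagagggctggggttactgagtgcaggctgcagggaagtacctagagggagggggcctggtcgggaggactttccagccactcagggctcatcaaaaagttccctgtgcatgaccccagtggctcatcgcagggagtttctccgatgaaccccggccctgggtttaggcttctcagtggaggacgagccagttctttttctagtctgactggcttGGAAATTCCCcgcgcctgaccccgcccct

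Tnfaip3: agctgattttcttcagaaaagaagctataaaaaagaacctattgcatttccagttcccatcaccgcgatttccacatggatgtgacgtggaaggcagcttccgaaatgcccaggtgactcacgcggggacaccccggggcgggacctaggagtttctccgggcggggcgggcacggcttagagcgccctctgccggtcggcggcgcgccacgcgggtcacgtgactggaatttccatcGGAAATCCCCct

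Rel: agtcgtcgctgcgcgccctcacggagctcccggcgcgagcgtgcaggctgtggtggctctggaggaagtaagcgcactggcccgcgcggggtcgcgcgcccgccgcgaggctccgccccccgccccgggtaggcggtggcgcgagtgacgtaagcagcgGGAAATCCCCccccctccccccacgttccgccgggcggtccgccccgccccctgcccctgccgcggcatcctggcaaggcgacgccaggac

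Of all 32851 promoter windows, 1.41% held these letters, and of the 11398 windows of tested genes 1.58% did. The list was drawn up from genes known as NF-kB targets, so the share among its members describes the list and not the change.

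BCL2 family and immediate-early genes shifted the same way in smaller numbers. Of 16 BCL2 family genes 5 rose and none fell (median log2 fold change 0.17), with Bcl2l1, which encodes the survival protein BCL-xL, at 185, 211.1, 256 and 298 CPM in vector replicates 1 to 4 and 84.7, 106, 142 and 199 CPM in ELOF1 replicates 1 to 4 (log2 fold change 0.88, SE 0.09, edgeR adjusted p = 0.000134). Each vector library was above its own pair, though vector replicate 1 was below ELOF1 replicate 4. Bcl2 and the death-promoting Bcl2l11 rose too, by 0.27 (SE 0.07, edgeR adjusted p = 0.0421) and 0.55 (SE 0.15, edgeR adjusted p = 0.0465) on the log2 scale, Bcl2l11 in 3 of 4 pairs, and neither passed without replicate 1 or without replicate 2. Bnip3l and Bnip3 were the other called members, so the 5 were not survival genes alone. The count of 5 was 3 without replicate 1, 1 without replicate 2 and 0 with fly scaling. Of 26 immediate-early and AP-1 genes 7 rose and none fell (median 0.26), and 1 remained called with fly scaling (median 0.14). They included the phosphatase Dusp4 (0.69, SE 0.08, edgeR adjusted p = 0.000402), Egr2 (0.80, SE 0.13, edgeR adjusted p = 0.0024) and the AP-1 partner Batf (0.50, SE 0.08, edgeR adjusted p = 0.00293). Of 25 B cell receptor signalling genes, 3 rose and 4 fell (median 0.04). The kinases Syk (-0.37, SE 0.08, edgeR adjusted p = 0.0154), Fyn (-0.37, SE 0.07, edgeR adjusted p = 0.00679) and Prkcb (-0.40, SE 0.10, edgeR adjusted p = 0.0242) fell, but Syk and Prkcb did not pass without replicate 1 or without replicate 2.

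The sterol pathway moved as a block. All 24 tested cholesterol synthesis genes had a positive log2 fold change, 18 of them passed and none fell, with a median of 0.38. None of the 18 remained called with fly scaling, where the median was 0.28 and 23 of 24 were still positive, and 5 members were called without replicate 1 and 5 without replicate 2. Cyp51, the lanosterol demethylase, was at 529, 298, 208.4 and 211.9 CPM in vector replicates 1 to 4, against 314, 163, 150 and 178 CPM in ELOF1 replicates 1 to 4 (log2 fold change 0.59, SE 0.09, edgeR adjusted p = 0.00251). Levels ran with the replicate number more than with the genotype, and each pair kept the direction. Idi1, the isopentenyl isomerase, rose by 0.66 (SE 0.10, edgeR adjusted p = 0.00154) and Fdft1, the squalene synthase, by 0.51 (SE 0.09, edgeR adjusted p = 0.00374) on the log2 scale. Of 14 fatty acid synthesis genes 5 rose and none fell (median 0.29), led by the desaturase Fads2 (0.52, SE 0.09, edgeR adjusted p = 0.00362) and by Acly, which makes cytosolic acetyl-CoA (0.47, SE 0.08, edgeR adjusted p = 0.0049), and 2 were called without replicate 1 or without replicate 2.

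Other metabolic and presentation lists had fewer called members, nearly all of them higher. Lysosome genes had 8 of 27 higher and none lower (median 0.20), with Grn, which encodes progranulin, at 114, 121, 243 and 216.8 CPM in vector and 63.8, 77.6, 137 and 138 CPM in the ELOF1 libraries (log2 fold change 0.73, SE 0.07, edgeR adjusted p = 0.000134). MHC class I and immunoproteasome genes had 7 of 20 higher (median 0.21) and MHC class II presentation 4 of 15 (median 0.20), and none fell in either. Ifi30, the lysosomal thiol reductase of antigen processing, averaged 357 ± 37.2 CPM in vector and 230 ± 13.6 CPM in the ELOF1 libraries (SD, n = 4 each), with no overlap (log2 fold change 0.63, SE 0.07, edgeR adjusted p = 0.000273). Glycolysis and hypoxia genes had 6 of 30 higher and none lower (median 0.14), led by the enolase Eno2 (0.57, SE 0.07, edgeR adjusted p = 0.000742). In the ATF4 and amino acid list 8 of 28 rose and 2 fell (median 0.17), with Psph higher (0.39, SE 0.07, edgeR adjusted p = 0.006) and the hormone Fgf21 lower (-1.22, SE 0.20, edgeR adjusted p = 0.00293). Uqcc2, which acts in the assembly of respiratory complex III, fell in every pair, at 14.9, 19.2, 27.5 and 24.8 CPM in vector against 27.5, 33.0, 38.4 and 39.2 CPM in the ELOF1 libraries (log2 fold change -0.69, SE 0.10, edgeR adjusted p = 0.00194). Of the other 15 tested complex III genes 1 rose, and Mrps28, a mitochondrial ribosomal protein gene, fell by -0.67 (SE 0.13, edgeR adjusted p = 0.00728) on the log2 scale while 2 of its 76-member list rose. Left-out replicates lowered these counts, to as few as 4 lysosome genes (without replicate 2 or 3), 3 MHC class I genes (without 1), 1 MHC class II gene (without 3), 1 glycolysis gene (without 2) and 3 ATF4 genes (without 1), and with fly scaling none of the higher members of these 5 lists passed.

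**Figure D2:**
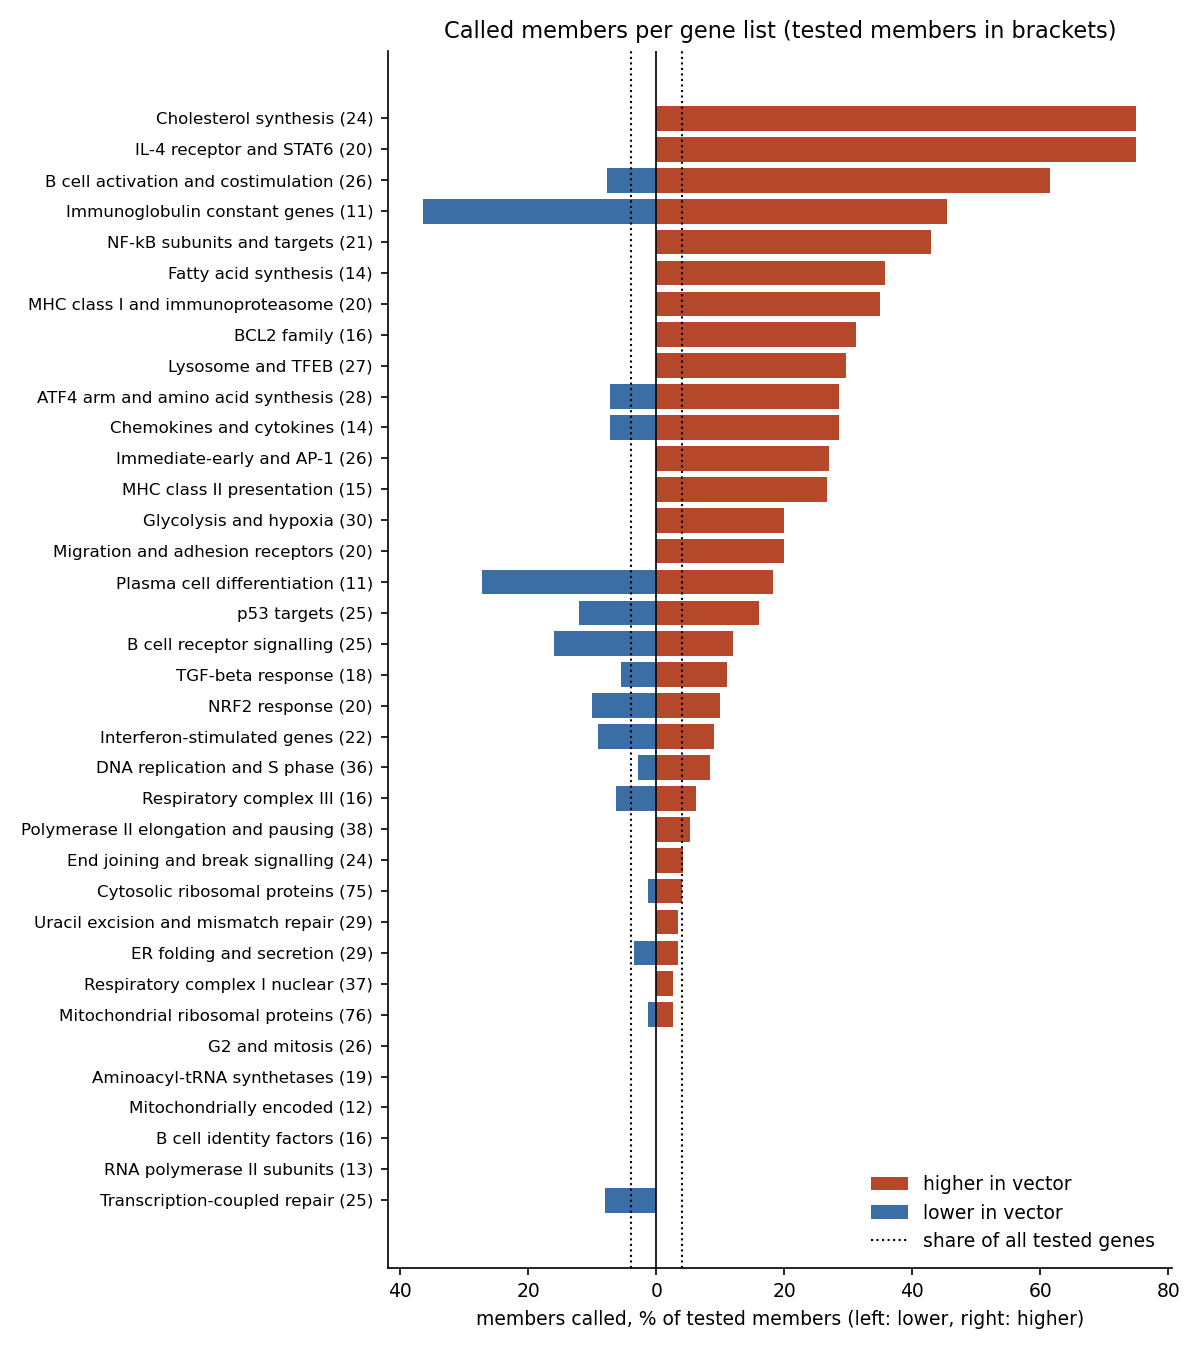
Share of each list's tested genes called higher (right) or lower (left) in vector at an edgeR adjusted p below 0.05, in percent, with the number of tested genes in brackets. Dotted lines mark the shares among all tested genes, 3.96% higher and 3.86% lower. Cholesterol synthesis and the IL-4 list reach far to the right, with 18 of 24 and 15 of 20 members higher, while G2 and mitosis, aminoacyl-tRNA synthetases, polymerase II subunits and B cell identity factors have no called member.

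In the lists of switching, repair and elongation machinery, called members numbered 0 to 2 a list, Elof1 among them, near the shares of all tested genes (3.96% higher and 3.86% lower), so these counts do not set the lists apart. Of 29 genes of uracil excision and mismatch repair, 1 (the elongation factor gene Supt4a) rose and none fell (median 0.03). Ung, the uracil glycosylase, had -0.11 (SE 0.09, edgeR adjusted p = 0.554) and Trp53bp1, which protects broken ends, -0.05 (SE 0.07, edgeR adjusted p = 0.776). Of 24 end joining genes Parp3 alone passed (0.46, SE 0.11, edgeR adjusted p = 0.0202). Of 25 transcription-coupled repair genes, Elof1 and the TFIIH subunit Gtf2h1 (-0.26, SE 0.07, edgeR adjusted p = 0.0358) were lower and none was higher. No polymerase II subunit of 13 passed with edgeR (median 0.07, and -0.03 with fly scaling). Of 38 elongation and pausing factors 2 rose (median 0.08, and -0.02 with fly scaling), Supt4a (0.36, SE 0.09, edgeR adjusted p = 0.0349) and Eloa (0.26, SE 0.07, edgeR adjusted p = 0.031), and neither passed when any 1 replicate was left out. Gtf2h1 likewise lost its call without any 1 replicate, and Parp3 without replicate 1 or 2. Supt5, the partner of Supt4a, was at 224.2, 221.3, 223.3 and 211.3 CPM in vector, against 198, 234, 216.5 and 213.5 CPM in the ELOF1 libraries. Its groups overlapped and its log2 fold change of 0.03 (SE 0.07, edgeR adjusted p = 0.858) was -0.07 with fly scaling. Of 36 S phase genes 3 were higher and 1 (Pola1, -0.35, SE 0.08, edgeR adjusted p = 0.0164) was lower, and none of 26 G2 and mitosis genes was called with edgeR. The 3 were 0 without replicate 1 and with fly scaling, and 1 without any other replicate.

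The largest rises, taken among called genes that had separate groups and reached a mean of 1 on the log2 CPM scale, included cell surface and cytoskeletal genes. Creb3l4, a transcription factor of the endoplasmic reticulum membrane, was at 3.47, 5.25, 4.26 and 3.25 CPM in vector replicates 1 to 4, against 0.953, 0.866, 0.711 and 1.53 CPM in ELOF1 replicates 1 to 4 (log2 fold change 1.94, SE 0.32, edgeR adjusted p = 0.00302). Fcer2a, Arhgap22 (1.62), Ighg1, Nrgn (1.52), the receptor kinase Flt3 (1.41), the actin regulator Evl (1.38) and the receptor guanylate cyclase Gucy2c (1.16) followed, of which Arhgap22 and Gucy2c did not pass without replicate 1 or without replicate 2, and Nrgn not without replicate 2. Flt3 was at 22.4, 13.6, 9.48 and 14.1 CPM in vector and 3.54, 3.36, 7.91 and 6.27 CPM in the ELOF1 libraries, so its gap was wide in series 1 and narrow in series 2. Mir7676-1 (1.40) and Mir7652 (1.14) were on the same list, but they lie within Csf2rb2 and G3bp1 on the same strand, and reads of host and microRNA cannot be told apart. Among abundant genes (a mean of 6 or more on that scale) Srgn, the core protein serglycin, rose by 1.04 (SE 0.15, edgeR adjusted p = 0.00154) and Arid5a, an RNA-binding regulator of inflammatory transcripts, by 0.92 (SE 0.09, edgeR adjusted p = 0.000134), on the log2 scale.

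The largest falls after Elof1 were Slc24a4, Prdm1, Pinlyp, Lmo7 and Serpinf1, of which Pinlyp did not pass without replicate 1 or without replicate 2. Slc24a4, a cation exchanger, was at 0, 0.525, 0 and 0.760 CPM in vector replicates 1 to 4, against 6.67, 11.2, 1.11 and 2.34 CPM in ELOF1 replicates 1 to 4 (log2 fold change -3.60, SE 0.55, edgeR adjusted p = 0.00208). It was near absent without ELOF1, and its level with ELOF1 was higher in series 1. Lmo7 fell by -2.30 (SE 0.32, edgeR adjusted p = 0.00112), at 0.386, 2.84, 3.19 and 2.56 CPM in vector and 3.95, 32.3, 8.14 and 8.34 CPM in the ELOF1 libraries, of which replicate 2 was far above the rest. Serpinf1, a secreted serpin, fell in all pairs by -2.10 (SE 0.21, edgeR adjusted p = 0.000157). Fras1 (chromosome 5, 96373955 to 96784728, plus strand), an extracellular matrix gene that spans 410774 bases, was at 42.8, 75.3, 52.0 and 71.8 CPM in vector, against 265, 260, 99.2 and 109 CPM in the ELOF1 libraries (log2 fold change -1.46, SE 0.23, edgeR adjusted p = 0.00248). The falls of abundant genes included the transcription factor Bhlhe41 (-1.0, SE 0.19, edgeR adjusted p = 0.006), the host transcript Mir17hg of the miR-17-92 cluster (-0.62, SE 0.11, edgeR adjusted p = 0.00437), the exchange factor Rasgrp3 (-0.60, SE 0.12, edgeR adjusted p = 0.0113) and the lysosomal protein Laptm5 (-0.58, SE 0.09, edgeR adjusted p = 0.0022).

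Genes that span long stretches of the genome were lower without ELOF1. Of 576 tested genes of 150 kb or more, 99 (17.2%) were lower and 20 (3.47%) higher in vector, and their median log2 fold change was -0.13. Of 1659 genes of 5 to under 10 kb, 39 (2.35%) were lower and 98 (5.91%) higher, with a median of 0.04. The median span was 54.6 kb for genes called lower, 18.01 kb for genes called higher and 18.6 kb for all tested genes. The shift was present in every pair, with medians for genes of 150 kb or more of -0.17, -0.14, -0.16 and -0.05 in pairs 1 to 4. Taken as 1 value per library, the median log2 CPM of genes spanning at least 100 kb, less the median of those under 10 kb, was 1.91, 1.82, 1.62 and 1.81 in vector replicates 1 to 4 and 2.02, 1.92, 1.77 and 1.87 in ELOF1 replicates 1 to 4. It was lower in vector in 4 of 4 pairs by a mean of -0.10 (SD of the pair differences 0.04), and the exact sign-flip test gave p = 0.13, the smallest that 4 pairs allow (adjusted over 3 values 0.375).

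Among long genes the shift was alike with few and with many exons and larger at low levels. Among genes of 100 kb or more, the median was -0.08 with 2 to 10 merged exon blocks and -0.09 with 11 or more. It was -0.46 for those with a mean log2 CPM under 3, -0.11 from 3 to under 6 and -0.04 at 6 or more, and genes under 10 kb in the same 3 level classes had medians of 0.00, 0.03 and 0.08. With fly scaling 31 genes of 150 kb or more were lower and 1 was higher. The 8 genes of this length named next were chosen after their values were seen, by smallest p. The cytoskeletal linker Dst had 688, 1199, 397 and 453 raw counts in vector replicates 1 to 4, against 1327, 2078, 782 and 775 in ELOF1 replicates 1 to 4 (log2 fold change -0.82, SE 0.08, edgeR adjusted p = 0.000132). Every vector library was below its ELOF1 pair, although levels differed widely between the series. Other called genes lie on the same strand within Dst, and within Pappa2, which is named next. How reads shared by such genes were counted is not given, and a locus can count more than once. Etl4 (-1.33, SE 0.14, edgeR adjusted p = 0.000157), Rasal2 (-1.03, SE 0.13, edgeR adjusted p = 0.000764), Ltbp1 (-0.92, SE 0.12, edgeR adjusted p = 0.000949), Syne2 (-0.62, SE 0.08, edgeR adjusted p = 0.00104) and Pappa2 (-2.0, SE 0.30, edgeR adjusted p = 0.00192) also fell. Samsn1 and Tbc1d4, of 163478 and 166832 bases, rose (0.81, SE 0.10, edgeR adjusted p = 0.000458, and 0.68, SE 0.10, edgeR adjusted p = 0.00194), so length did not fix the direction of a single gene.

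**Figure D3:**
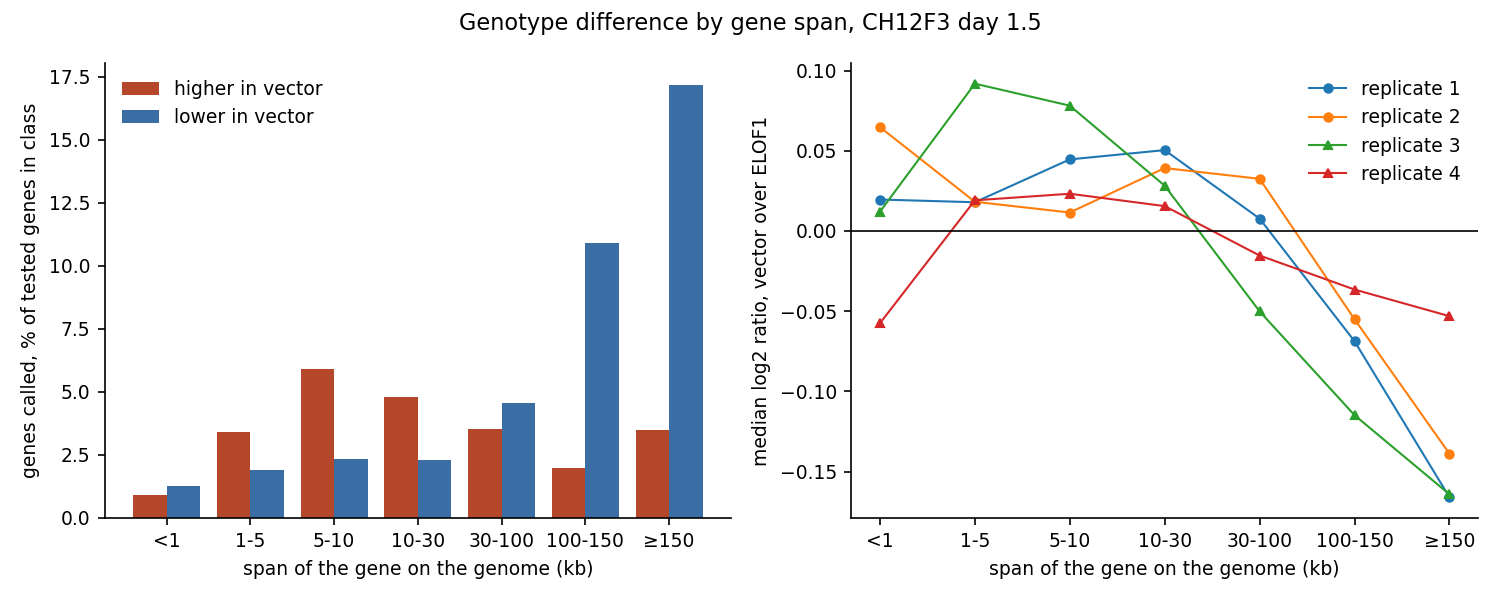
Genotype difference by the span of a gene on the genome in kb. The left panel gives the percent of tested genes called higher (red) or lower (blue) in vector in each class, and the right panel the median log2 ratio of vector over ELOF1 in each replicate pair (circles, series 1; triangles, series 2). The share called lower reaches 17.2% at 150 kb or more, and the medians of all 4 pairs are below 0 from 100 kb on.

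The difference was larger in series 1 than in series 2. Of 983 called genes tested in each series alone, 777 (79.0%) were larger in series 1, where 61.2% of all 12276 genes were. All 983 had the same direction in both, which the choice of these genes from the same 4 pairs largely fixes, and 7515 of the 12276 did. The median absolute log2 fold change of the called genes was 0.64 in series 1 and 0.40 in series 2, and for all genes 0.18 and 0.13. Elof1 in ELOF1 libraries was 707 and 645 CPM in series 1 and 395 and 175 CPM in series 2. Libraries of series 1 were also shallower, at 7112130 to 9453758 mouse counts against 10716722 to 15163087 in series 2. Whether the level of the construct or the depth has a part in the larger difference was not tested. A test of the difference between series called 74 genes (0.582%), 41 of them among the 993. Wnt10a had the largest difference of those named, at 1.03, 2.0, 21.1 and 15.4 CPM in vector replicates 1 to 4 and 27.4, 44.5, 34.3 and 21.4 CPM in ELOF1 replicates 1 to 4 (series 2 minus series 1 on the log2 scale 3.96, edgeR adjusted p = 1.7e-05). Vector was far below ELOF1 in series 1 and nearer to it in series 2, and its day 1.5 call was lost without replicate 1 or without replicate 2. Prdm1 (2.56, edgeR adjusted p = 0.0027), Traf1 (-1.07, edgeR adjusted p = 0.0026), Bcl2l11 (-0.99, edgeR adjusted p = 0.003) and Srgn (-0.92, edgeR adjusted p = 0.0084) also differed, each with the smaller change in series 2. The direction turned in series 2 for Apoe, at 31.1, 34.5, 14.3 and 10.3 CPM in vector replicates 1 to 4 and at 138 CPM or more in both ELOF1 libraries of series 1 and 12.2 and 8.01 CPM in those of series 2, and for mt-Nd4, both named after their values were seen and neither called in the comparison over all 4 pairs. The count of 74 was 583 without replicate 1, 306 without replicate 2, 49 without replicate 4, 1 with fly scaling and 0 without the pairing (edgeR, 315 at an unadjusted p below 0.05).

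**Figure D4:**
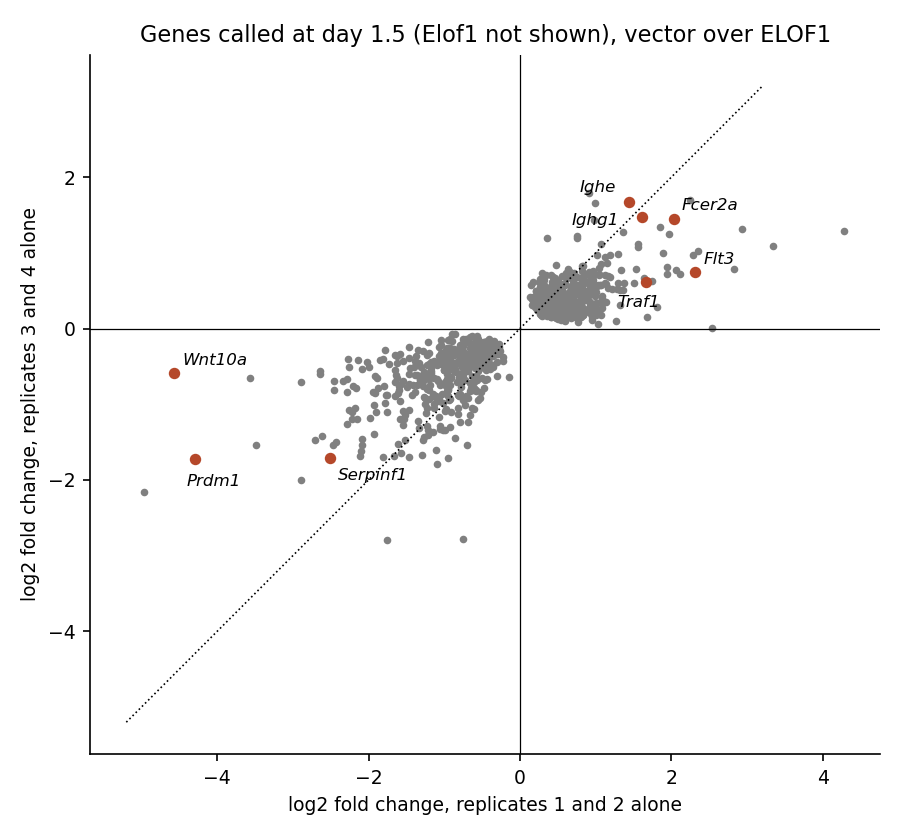
Log2 fold change of vector over ELOF1 for genes called at day 1.5, from replicates 1 and 2 alone (horizontal) and from replicates 3 and 4 alone (vertical), without Elof1. Each point is a gene and the dotted line marks equal values. The points lie in the 2 quadrants of equal sign, most of them between the horizontal axis and the line, with Wnt10a and Prdm1 far to the left.

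Later cultures of the same line kept most of the directions. In the 8 libraries of days 3 and 7, 4 per genotype and none shared with day 1.5, 1141 of 12567 genes (9.08%) differed between vector and ELOF1. Of the 975 day 1.5 genes tested there, 943 (96.7%) had the same direction, where 72.5% of all genes did, and 516 (52.9%) were called in that direction and none in the other. Those 516 were 45.4% of the later calls. Ighe had a log2 fold change of 2.17 (SE 0.21) there, Ighg1 1.64 (SE 0.20), Fcer2a 0.88 (SE 0.09), Stat5a 0.52 (SE 0.06), Cish 0.53 (SE 0.13) and Prdm1 -1.62 (SE 0.14). The IL-4 list had 12 and the activation list 13 members higher, the cholesterol list 8. Igha was at -0.70 (SE 0.06, edgeR adjusted p = 4.3e-05). Ighm, not called at day 1.5, was higher there (0.78, SE 0.19, edgeR adjusted p = 0.0233), the opposite of its sign at day 1.5 (-0.33). Genes of 150 kb or more were lower in 75 and higher in 15 of 567 cases (median -0.10). The labels used here do not say whether these cultures derive from those of day 1.5. Without the pairing 9 genes passed, without replicate 1 of day 3 462, without replicate 2 of day 3 574, and with fly scaling 3595, 141 higher and 3454 lower.

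Primary spleen B cells, kept in LPS and IL-4 for 2.5 days, shared part of this response, and fewer genes went the opposite way. They came from conditional Elof1 knockout (cKO) and wild-type (WT) mice, 5 libraries each, fitted together with the 8 CH12F3 libraries. In that fit 551 of 14196 genes (3.88%) differed between cKO and WT, 319 of them higher and 232 lower in cKO. Between vector and ELOF1, 159 (1.12%) differed in it. Of the 993 CH12F3 genes, 80 were called in spleen in the same direction and 28 in the opposite one, which is 10.9% of the CH12F3 and 19.6% of the spleen calls. The genotype effect itself differed between the systems for 141 genes (0.993%), 78 of them among the 993 and all 28 opposite ones among those. The choice of the 28 by calls of opposite sign in the same libraries largely fixes that they differ. The count of 141 was 84 without the pairing. It was 34 and 32 without CH12F3 replicates 1 and 2, 74 and 92 without CH12F3 replicates 3 and 4, 75 to 91 without any of WT or cKO replicates 1 to 3, and 238 without cKO replicate 5.

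Among genes that moved in the same direction, Uqcc2 averaged 22.4 ± 6.59 CPM in cKO and 39.2 ± 11.5 CPM in WT cells (SD, n = 5 each), a log2 fold change of -0.80 (SE 0.09, edgeR adjusted p = 0.00022). Ifi30 averaged 947 ± 259 CPM in cKO and 561 ± 165 CPM in WT cells (0.76, SE 0.08, edgeR adjusted p = 0.000299). Cd40 (0.39), Cd86 (0.67) and Ccr7 (1.13) rose in cKO as well, Rasal2 (-0.94), Pola1 (-0.37) and Mrps28 (-0.56) fell, and none of these differed between the systems at an edgeR adjusted p below 0.05. That does not show effects of equal size. Ccr7 had 0.36 in CH12F3 in the same fit (CH12F3 minus spleen -0.77, SE 0.20, edgeR adjusted p = 0.0981). Long genes shifted too, with 44 of 576 genes of 150 kb or more lower and 3 higher in cKO (median -0.16).

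Several IL-4 induced genes did not move alike, though Il4i1 of that list, named after its values were seen, rose in both (0.44 in spleen). Ighg1, of the isotype that LPS with IL-4 is known to induce, averaged 486 ± 79.9 CPM in cKO and 1320 ± 351 CPM in WT cells (SD, n = 5 each; log2 fold change -1.42, SE 0.12, edgeR adjusted p = 4.29e-05). In CH12F3 cells it rose, and the difference between the effects was 2.94 (edgeR adjusted p = 5.71e-06). Egr2 rose in vector and fell in cKO cells, to 26.4 ± 3.79 CPM against 70.8 ± 13.2 CPM in WT cells (difference 2.20, edgeR adjusted p = 5.99e-05). Cdk5r1, Irf4, Psph, Ccl22 and Bcl2 were also higher in vector and lower in cKO. Ighg1, Egr2, Cdk5r1 and Fcer2a were among the 8 genes taken by the smallest p of this difference. Fcer2a averaged 598 ± 97.0 CPM in cKO and 606 ± 59.99 CPM in WT cells and did not pass there (-0.03, SE 0.10, edgeR adjusted p = 0.942), with a difference of 1.75 between the systems (edgeR adjusted p = 5.99e-05). Stat5a (0.01, SE 0.10) and Nfkb2 (-0.04, SE 0.07) in spleen likewise did not pass and differed from CH12F3, by 0.95 (edgeR adjusted p = 0.00737) and 0.53 (edgeR adjusted p = 0.0179). Prdm1 averaged 48.9 ± 17.8 CPM in cKO and 38.6 ± 8.26 CPM in WT cells, where it did not pass, against its fall in CH12F3 (difference -3.16, edgeR adjusted p = 0.00537). The systems differ in stimulus, time, Elof1 allele and the level of Elof1 in the proficient cells, and these cannot be told apart.

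**Figure D5:**
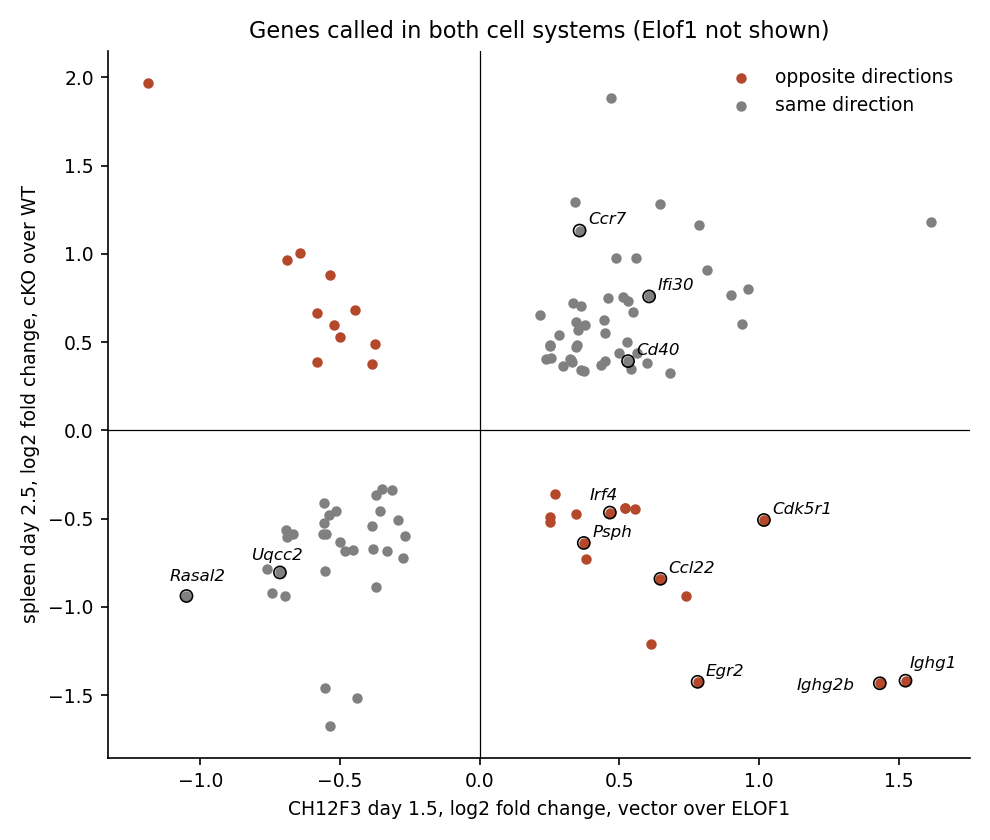
Genes called in both systems, with the log2 fold change of vector over ELOF1 in CH12F3 cells (horizontal) and of cKO over WT in spleen B cells (vertical), without Elof1. Red points are the 28 genes with opposite directions and grey points the genes with the same direction, and ringed points are named. Ighg1, Ighg2b and Egr2 lie at the lower right, higher in vector and lower in cKO, and Uqcc2 and Rasal2 at the lower left.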

How the data were processed

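Counts of reads per gene were deposited by the authors as raw counts, not normalized. Alignment with Bowtie2, counting with featureCounts, and the mouse build mm10 and fly build dm6 are recorded per the submitters' processing notes, without versions, and strand use in counting is not given in the sources used here. Libraries were prepared with strand-specific kits after ribosomal RNA depletion, per the labels' protocols. Mouse counts of the 8 day 1.5 libraries were tested with edgeR 4.0.16 in R 4.3.3 (quasi-likelihood test, TMM scaling, filterByExpr with a minimum count of 10, replicate number as block and genotype), with Benjamini-Hochberg adjustment over 12706 genes and a threshold of 0.05. SE is the absolute log2 fold change over the root of F. CPM were taken from TMM-scaled library sizes. A fit over both cell systems had the block within CH12F3 and library series within spleen. Values of 1 per library were tested by exact sign flips over 4 pairs, 2-sided.

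The pairing comes from the replicate numbers in the labels. Deviations from the group mean correlated at 0.74, 0.71, 0.73 and 0.75 between libraries of the same number, and at most 0.45 with another number. Spans, exon blocks and overlaps were taken from the gene coordinates deposited with the counts. These coordinates were compared with a GENCODE annotation of the same build, and both ends matched for 33496 of 43345 mouse genes. Promoter windows were read from RefSeq (GRCm38.p6).

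The members and the 44 gene lists were chosen with earlier results of these data known. Genes named were Elof1 and 8 switching and immunoglobulin genes, the 10 largest rises and falls among called genes whose mean log2 CPM reached 1, with no overlap and 1 direction in 4 pairs, the 6 largest with a mean of at least 6, up to 6 called members per list by p, and 8 for the difference from spleen. Some of these genes are not reported here. Others are said to be chosen after their values were seen. Alternatives were DESeq2 1.42.0, RLE and fly scaling, no filter, no block, other sets of libraries and each replicate left out. Counts of the day 1.5 comparison were also simulated from this same blocked model, over 12532 genes. The test recovered 63.6% of changes of 0.5, 95.5% of 1 and 100% of 2 on the log2 scale, with 11 false calls. Changes were planted only in genes above a low mean count. The spread of a simulated gene followed its level alone, and no effect differed between series. These shares therefore describe the model and not how the calls hold in these libraries. The remaining steps and the plots were run in Python 3.11.15 (matplotlib 3.10.9, SciPy 1.17.1, pandas 2.3.3).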

Additional observations from a re-analysis of the deposited data

Results flagged for a closer look

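Single libraries stood apart from the other 3 of their group for 9 of the genes described, by the ratio of the gap to the range, out of 238 groups of 4 libraries examined, of which about 1 in 20 would be expected to do so. Vector replicate 3 was high for Pik3cg (14.32 CPM), a PI3-kinase subunit that fell, and vector replicate 4 for Adgre1 (66.18 CPM). ELOF1 replicate 1 was high for Cyp51 (314.2 CPM) and Lss (126.9 CPM), replicate 2 high for Lmo7 (32.26 CPM) and low for Fads2 (54.89 CPM), replicate 3 low for Dusp4 (76.92 CPM), and replicate 4 high for Mir7676-1 (5.874 CPM) and Tagap (163.4 CPM). The genes of sterol and fatty acid metabolism among these also ran high or low in the library of the same number in the other group.

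The genotype effect differed between CH12F3 cells at day 1.5 and spleen B cells at day 2.5 for 26 of the genes described, tested as an interaction with edgeR at an adjusted p below 0.05. The values that follow are the CH12F3 effect minus the spleen effect on the log2 scale. It was -4.05 for Elof1, whose level in the proficient cells differs between the systems. Immunoglobulin genes had 2.94 (Ighg1), 2.87 (Ighg2b) and -1.32 (Iglc2). IL-4 targets and activation genes had 1.75 (Fcer2a), 0.95 (Stat5a), 1.49 (Ccl22), 0.93 (Irf4), 2.20 (Egr2), 0.99 (Slamf7), 0.99 (Gpr183) and 0.98 (Srgn). NF-kB and survival genes had 0.53 (Nfkb2), 0.51 (Nfkb1), 1.17 (Bcl2l1), 0.79 (Cflar) and 0.74 (Bcl2). The largest-change genes had -3.16 (Prdm1), 2.65 (Flt3), 1.42 (Evl) and -2.12 (Serpinf1). Psph, of the ATF4 and amino acid list, had 1.01. Genes taken by the smallest p of this same test had 1.53 (Cdk5r1), -2.57 (Pik3cg), 1.29 (Cth) and -1.91 (Lynx1). Ighg1, Egr2, Fcer2a and Bcl2l1 were among the 8 genes taken in this way too, so their passing is fixed by that choice.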

How the results depend on the processing

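The day 1.5 count of 993 genes was 64 without the replicate block but with a term for library series, 1 without either, 186 with fly scaling, 1498 with no filter (22471 genes tested), and 428 to 865 with single replicates left out. The blocked fits also set the other counts. For days 3 and 7, 1141 genes became 9 without the block, 3595 with fly scaling, 719 with DESeq2, and 462 to 888 with single replicates left out. For the difference from spleen, 141 became 20 with fly scaling, 390 with no filter, 359 with DESeq2, 84 without the block, 34, 32, 74 and 92 without CH12F3 replicates 1 to 4, and 75 to 238 without single spleen libraries. For the difference between library series, 74 became 1 with fly scaling, 287 with no filter, 0 without the block (edgeR, 315 at an unadjusted p below 0.05, and 54 with DESeq2 in the blocked design), and 49 to 583 with single replicates left out, where the lone pair of a series is assumed to vary like the others.

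Of values per library, the log2 Igha to Ighm ratio ran from -0.0861 (without replicate 1) to 0.3322 and the fly to mouse ratio from -0.0397 (without replicate 1) to 0.2476. Signs turned for Supt5 at -0.0714 with fly scaling and at -0.016 without replicate 1 (up to 0.0677 without replicate 2), for Trp53bp1 at 0.0148 without replicate 1 (down to -0.0967 without replicate 3) and 0.0596 in series 2 alone, and in series 2 alone for Ighm (0.0214), Lynx1 (0.1352), Apoe (0.2914) and mt-Nd4 (-0.3016). The cause was not tested. Of 116 genes followed, 105 kept their direction and side of the threshold with DESeq2, 51 with fly scaling, 32 without the block, 85 without replicate 1 and 89 without replicate 2. With 4 pairs, sign flips cannot give a p below 0.13. Depth, from 7112130 to 15163087 mouse counts per library, limits genes of low count most.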

Other observations

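Stress and growth lists not described above were mixed. Of 25 p53 target genes 4 rose and 3 fell in vector (median log2 fold change 0.05, and -0.05 with fly scaling), with Cdkn1a, which encodes the cell cycle inhibitor p21, higher (0.89) and the kinase gene Plk2 lower (-2.20), though neither passed without replicate 1. Of 20 NRF2 targets 2 rose and 2 fell, of 29 genes of folding and secretion in the endoplasmic reticulum 1 rose and 1 fell, and of 75 cytosolic ribosomal protein genes 3 rose and 1 fell. No aminoacyl-tRNA synthetase of 19 and no mitochondrially encoded gene of 12 passed with edgeR. Of 18 TGF-beta response genes 2 rose and 1 fell, and of 22 interferon-stimulated genes 2 rose and 2 fell. Among all tested genes, 3.96% were higher and 3.86% lower in vector. Shares of ribosomal protein and of folding and secretion genes were near or below these, so their counts do not set those lists apart. The p53, NRF2, TGF-beta and interferon counts rest on 1 to 4 genes in each direction and were not tested against these shares. With single replicates left out, 0 to 1 NRF2 targets were called higher and 0 to 1 lower, 0 and 0 to 2 folding and secretion genes, 0 to 1 and 0 to 1 ribosomal protein genes, 0 to 2 and 1 to 2 TGF-beta response genes, and 0 to 2 and 1 to 4 interferon-stimulated genes (edgeR).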
